A study of Mus musculus with 3 samples.

Results

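The Tdpoz genes are a mouse family named for a TD domain, of the TRAF or MATH type, and a POZ domain, also called BTB. Tdpoz1 was first isolated from cDNA of the 2-cell embryo, and the family is known as part of the transient transcription of that stage. In Spop, the best studied mouse and human relative, the MATH domain holds a substrate and the BTB domain holds Cul3, the scaffold of a ubiquitin ligase, and whether the Tdpoz proteins do the same is less well described. A small share of ES cells in culture passes through a state in which 2-cell genes are expressed. Probes of the array were taken as members where their gene name starts with Tdpoz. This gave 4 of the 34797 gene names on the array and 7 of its 55681 probes: 2 probes for Tdpoz1, 1 for Tdpoz2, 2 for Tdpoz3 and 2 for Tdpoz4. No probe carried the name Tdpoz5.

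Each measurement is the Cy3 signal of total RNA on 1 of 9 single-colour expression arrays, 3 per group. Nr0b1 KO/Y ES cells (Dax1 KO/Y in the labels) had lost Nr0b1, also called Dax1, for good. Nr0b1 fl-/Y+Tx ES cells (Dax1 flox/Y with Cre for 4 days) had been cultured for 4 days with 4-hydroxy tamoxifen (Tx), which activates a tamoxifen-dependent Cre recombinase, MerCreMer, and Nr0b1 fl-/Y−Tx ES cells (Dax1 flox/Y) carried the same floxed exon 2 without Tx. All 3 groups derived from the male mouse ES line EB5, itself from E14tg2a, and carried MerCreMer and Egfp under a constitutive promoter on PiggyBac vectors, so that the untreated cells held the recombinase too. The study describes deleted cells grown out as clones after Tx, and names 2 independent pairs of a targeted line and its KO/Y descendant, without saying which of them the arrays hold. In what follows the groups are called KO/Y, fl-/Y+Tx and fl-/Y−Tx ES cells. Cells were cultured in medium with LIF, with or without fibroblast feeders, and the sources do not say which applied here.

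The study's text speaks of biological triplicates, but the labels do not tie an array to a culture, so p-values measure the spread between these arrays. The 3 fl-/Y−Tx arrays and array 1 of fl-/Y+Tx lay on slide 1, and the 3 KO/Y arrays and arrays 2 and 3 of fl-/Y+Tx on slide 2. KO/Y and fl-/Y−Tx ES cells therefore never shared a slide, and a slide effect between them could be fitted only through the fl-/Y+Tx arrays. Intensities are given scaled, so that the 75th percentile of every array has the same value, and a probe counts as detected on an array where the scanner software marked it well above background. The lowest scaled intensity so marked was between 17.5 and 30.5 on the 9 arrays. Nr0b1 gave 4.68, 5.27 and 5.18 in KO/Y ES cells, never well above background, 64.6, 61.0 and 72.4 in fl-/Y+Tx ES cells, and 6255, 7025 and 6647 in fl-/Y−Tx ES cells. The labels and the targeted gene went together on all 9 arrays.

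The members lie in a cluster on chromosome 3, and some of their probes differ by few bases from those of neighbouring copies, which is why the sequences come before the values. Probes are 60 bases long, and their mm9 positions come from the array's annotation. The Tdpoz3 probe A_55_P2060736 (chr3:93630980-93631039) and the probe A_55_P1970287 (chr3:93852944-93853003, minus strand) of Gm9125, which RefSeq now calls Tdpoz9, end at the same stop codon and share 53 of 60 bases. Capitals mark the 7 that differ.
Tdpoz3 A_55_P2060736: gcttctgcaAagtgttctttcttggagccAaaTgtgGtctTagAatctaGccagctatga
Tdpoz9 (Gm9125) A_55_P1970287: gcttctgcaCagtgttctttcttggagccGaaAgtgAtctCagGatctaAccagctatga
The Tdpoz2 probe A_55_P2010596 (chr3:93455493-93455552, minus strand) is the member detected on every array. Its nearest probe is A_55_P2008507 (chr3:93577980-93578039) of Gm5773, annotated as a pseudogene. In their alignment 55 of 60 positions were identical, and capitals mark the 5 that were not. Among them are the bases AG of the Gm5773 probe, which face a gap in the Tdpoz2 probe.
Tdpoz2 A_55_P2010596: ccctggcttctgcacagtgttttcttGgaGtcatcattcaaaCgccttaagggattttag
Gm5773 A_55_P2008507: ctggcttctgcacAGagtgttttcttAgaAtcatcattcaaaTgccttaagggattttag
The Tdpoz4 probe A_55_P2076585 (chr3:93601262-93601321) covers the same stretch of the coding sequence as the probe A_55_P1959788 (chr3:93764238-93764296, minus strand) of Gm10697. RefSeq calls Gm10697 Tdpoz7, and the accessions listed for its probes are those of Tdpoz7 and Tdpoz5 together, so that this is where the array reads Tdpoz5. The aligned stretch held 58 positions, of which 48 were identical.
Tdpoz4 A_55_P2076585: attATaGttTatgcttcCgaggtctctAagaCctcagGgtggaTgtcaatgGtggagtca
Tdpoz7 and Tdpoz5 (Gm10697) A_55_P1959788: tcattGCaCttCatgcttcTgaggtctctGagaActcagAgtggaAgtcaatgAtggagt
The Tdpoz1 probe A_55_P1970284 (chr3:93474403-93474462, minus strand) and the probe A_55_P2099991 (chr3:93979427-93979486, minus strand) of Gm10696, named Spopfm2 in RefSeq, shared 50 of 58 aligned bases.
Tdpoz1 A_55_P1970284: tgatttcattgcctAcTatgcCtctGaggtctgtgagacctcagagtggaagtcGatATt
Gm10696 A_55_P2099991: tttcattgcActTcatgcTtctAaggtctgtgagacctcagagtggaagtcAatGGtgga
The other Tdpoz4 probe, A_55_P2076587 (chr3:93600794-93600853), and the other Tdpoz3 probe, A_55_P2074957 (chr3:93630374-93630433), had no probe on the array within 12 edits end to end. The same held for A_55_P2076585 and A_55_P1970284 above, whose alignments are shifted, so this does not set a probe apart. A_55_P2076587 and A_55_P2074957 are printed because their results differ from those of their gene's first probe.
Tdpoz4 A_55_P2076587: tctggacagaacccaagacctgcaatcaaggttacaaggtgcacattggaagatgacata
Tdpoz3 A_55_P2074957: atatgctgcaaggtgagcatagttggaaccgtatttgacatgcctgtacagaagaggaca
RNA of a copy with few mismatches can bind such a probe, so a signal may be that of the named gene together with its closest copies. Whether it is, and how it divides among them, was not tested.

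The probe of Tdpoz2, 1 of the 2 of Tdpoz3 and both of Tdpoz4 gave higher signals in KO/Y than in fl-/Y−Tx ES cells. Their mean signals in fl-/Y+Tx ES cells lay between those of the other groups. The other Tdpoz3 probe and the 2 probes named Tdpoz1 were not detected in any group. The 4 Tdpoz-named probes that could be tested were called higher in both deleted groups over fl-/Y−Tx ES cells. Of all tested probes 4.58% were called higher in KO/Y and 1.71% in fl-/Y+Tx over fl-/Y−Tx ES cells. Of the 4 Tdpoz-named probes 3 could be tested only through their signal in KO/Y ES cells. With slide as a block 3 of the 4 were called in each of these comparisons, and a floor on low signals left 1 of 4 in fl-/Y+Tx over fl-/Y−Tx ES cells. Tdpoz2, detected on all 9 arrays, was 5.50-fold higher in KO/Y and 2.51-fold higher in fl-/Y+Tx than in fl-/Y−Tx ES cells. In bulk RNA, more cells with the transcript and more transcript per cell cannot be told apart.

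The Tdpoz2 probe had scaled intensities of 192, 207 and 159 in KO/Y ES cells, 81.4, 100.4 and 74.0 in fl-/Y+Tx ES cells, and 35.1, 36.0 and 30.1 in fl-/Y−Tx ES cells. The 3 groups formed 3 separate steps without overlap. Among all tested probes, every array of the first group lay above every array of the second for 24.0% in KO/Y over fl-/Y−Tx, 17.8% in fl-/Y+Tx over fl-/Y−Tx and 17.7% in KO/Y over fl-/Y+Tx ES cells. On the log2 scale relative to the 75th percentile of an array Tdpoz2 was at -1.06 ± 0.20 in KO/Y, -2.19 ± 0.23 in fl-/Y+Tx and -3.52 ± 0.14 in fl-/Y−Tx ES cells (SD, n = 3 each). The log2 fold change of Tdpoz2 was 2.46 in KO/Y over fl-/Y−Tx ES cells (standard error 0.14, adjusted p = 4.3e-06 from limma), 1.33 in fl-/Y+Tx over fl-/Y−Tx ES cells (with an adjusted p = 0.000474) and 1.13 in KO/Y over fl-/Y+Tx ES cells (adjusted p = 0.000805). With slide as a block these values were 2.38 (adjusted p = 0.00143), 1.27 (adjusted p = 0.013) and 1.10 (adjusted p = 0.00438). Within the slide that both groups share, the value was 1.27 in fl-/Y+Tx over fl-/Y−Tx (adjusted p = 0.0353, 1 array against 3) and 1.10 in KO/Y over fl-/Y+Tx ES cells (adjusted p = 0.018, 3 arrays against 2).

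The Tdpoz3 probe A_55_P2060736 had 92.1, 126 and 71.0 in KO/Y ES cells, all well above background. In fl-/Y+Tx ES cells it had 36.5, 29.1 and 17.5, of which the first alone was well above background, and in fl-/Y−Tx ES cells it had 6.32, 5.21 and 5.49, of which none was. The groups again did not overlap, but the level in fl-/Y−Tx ES cells is only a bound. Set against the lowest detected signal of those arrays, this probe was at least 4.33-fold higher in KO/Y and at least 1.22-fold higher in fl-/Y+Tx ES cells. The fitted log2 fold changes were 4.05 (adjusted p = 1.39e-05 from limma) and 2.23 (adjusted p = 0.00114). Here and below, an adjusted p beside a fold written as at least tests the fitted value, not the bound. The probe was also called higher in KO/Y over fl-/Y+Tx ES cells (adjusted p = 0.00238), where the measured fold of 3.54 rests in part on the 2 arrays that did not detect it. The second Tdpoz3 probe, A_55_P2074957, lies further from the end of the transcript and was detected on none of the 9 arrays, with 13.5, 23.6 and 8.38 in KO/Y, 4.62, 6.87 and 4.28 in fl-/Y+Tx and 5.47, 4.58 and 8.31 in fl-/Y−Tx ES cells. The 2 probes of Tdpoz3 thus differ in what they detect.

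The Tdpoz4 probe A_55_P2076585 had 85.2, 70.1 and 51.3 in KO/Y ES cells, 28.6, 16.4 and 15.1 in fl-/Y+Tx ES cells, of which the first alone was well above background, and 6.24, 5.35 and 5.68 in fl-/Y−Tx ES cells, none of them well above it. It was at least 3.12-fold higher in KO/Y than in fl-/Y−Tx ES cells (with an adjusted p = 1.72e-05) and was also called over fl-/Y+Tx ES cells (adjusted p = 0.00154), where the measured fold of 3.51 rests in part on the 2 arrays that did not detect it. In fl-/Y+Tx over fl-/Y−Tx ES cells the fit called it (log2 fold change 1.74, adjusted p = 0.00234), but the bound gave no fold above 1. The other Tdpoz4 probe, A_55_P2076587, had 75.2, 61.3 and 82.4 in KO/Y ES cells, 30.5, 29.5 and 29.2 in fl-/Y+Tx ES cells and 7.07, 23.7 and 5.52 in fl-/Y−Tx ES cells, where array 2 stood above the other 2. It was at least 3.16-fold higher in KO/Y (adjusted p = 0.00108) and at least 1.30-fold higher in fl-/Y+Tx ES cells (adjusted p = 0.036) than in fl-/Y−Tx ES cells. With slide as a block neither was called (adjusted p = 0.0534 in KO/Y and 0.19 in fl-/Y+Tx over fl-/Y−Tx ES cells). Between KO/Y and fl-/Y+Tx ES cells its log2 fold change was 1.28 and missed the threshold (adjusted p = 0.0761), although the arrays of the groups did not overlap. Without array 2 of fl-/Y−Tx ES cells, that adjusted p was 0.000804. The call in fl-/Y+Tx over fl-/Y−Tx ES cells was kept without that array (adjusted p = 0.000123) and lost without any 1 of the other 8 (adjusted p between 0.0515 and 0.113).

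Tdpoz1 had 2 probes and neither was well above background on any array. A_55_P1970284 had 15.0, 9.04 and 4.65 in KO/Y ES cells, 4.18, 6.26 and 3.68 in fl-/Y+Tx ES cells and 5.03, 4.16 and 4.36 in fl-/Y−Tx ES cells. A_52_P332044 lay between 4.18 and 7.17 on all 9 arrays. At this signal a difference was not detectable with these 2 probes. A probe of Tdpoz9 described with that gene, A_55_P1970287, also lists an accession of Tdpoz1 and was detected.

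**Figure D1:**
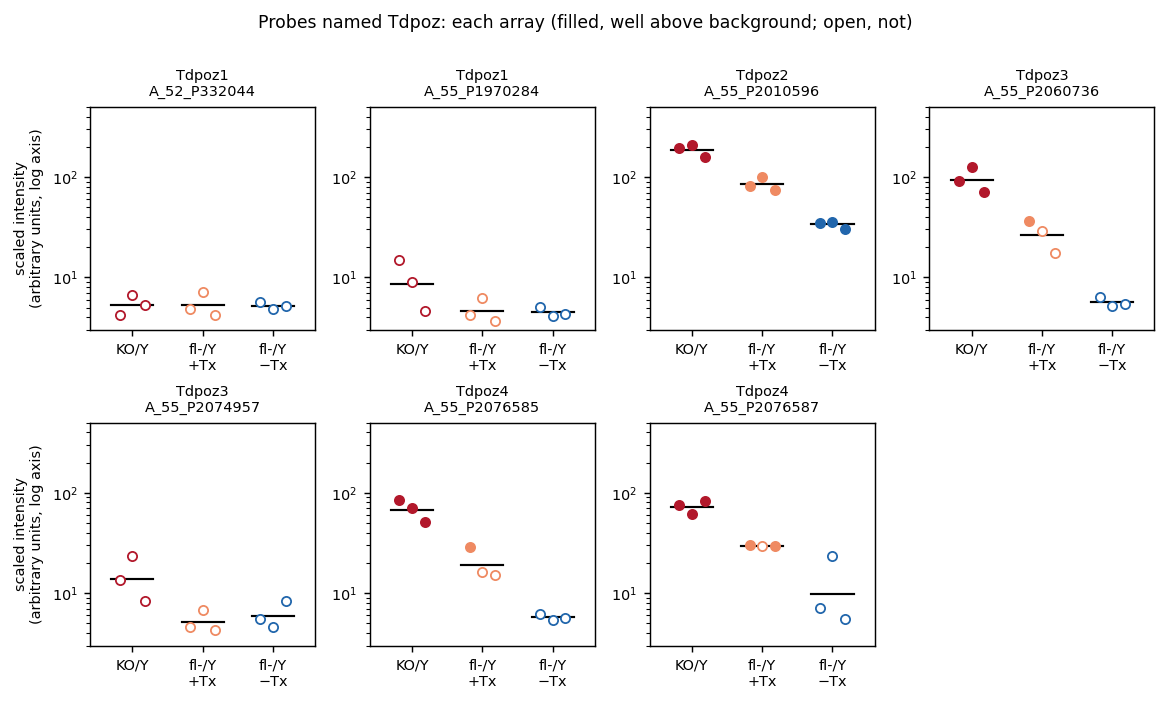
Scaled intensity (log axis, arbitrary units) of the 7 probes named Tdpoz on each array of KO/Y, fl-/Y+Tx and fl-/Y−Tx ES cells. Filled points are well above background, open points are not, and bars are geometric means. The 3 Tdpoz2 groups are separate steps, and the Tdpoz1 panels hold open points only.

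A probe was tested if all 3 arrays of some group detected it, which held for 31189 probes and for 4 of the 7 Tdpoz-named ones, and called at over 2-fold with an adjusted p under 0.05. In KO/Y over fl-/Y−Tx ES cells 4 of the 4 were called higher, where 4.58% of all tested probes were. In fl-/Y+Tx over fl-/Y−Tx ES cells it was 4 of 4 against 1.71%, and in KO/Y over fl-/Y+Tx ES cells 3 of 4 against 2.23%. The probe A_55_P2060736 of Tdpoz3 and the 2 of Tdpoz4 passed only through their signal in KO/Y ES cells. A difference from fl-/Y−Tx ES cells, and of KO/Y from fl-/Y+Tx ES cells, was thus built into their selection. Tdpoz2 alone was free of this. None was called lower, where 3.25% of all tested probes were called lower in KO/Y over fl-/Y−Tx, 0.850% in fl-/Y+Tx over fl-/Y−Tx and 1.30% in KO/Y over fl-/Y+Tx ES cells. In either direction 7.84%, 2.56% and 3.54% of all tested probes were called in these comparisons. The median log2 fold change of all tested probes was -0.07 in KO/Y over fl-/Y−Tx, -0.06 in fl-/Y+Tx over fl-/Y−Tx and 0.00 in KO/Y over fl-/Y+Tx ES cells.

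Under other names the array held 6 probes of 3 more genes that RefSeq counts to the family. Tdpoz7 and Tdpoz9 were higher in KO/Y than in fl-/Y−Tx ES cells, and Tdpoz8 differed by less than 2-fold. The Tdpoz7 and Tdpoz5 probe A_55_P1994401 had 216, 164 and 154 in KO/Y ES cells, 108, 87.7 and 101.4 in fl-/Y+Tx ES cells and 54.0, 48.6 and 41.8 in fl-/Y−Tx ES cells, well above background on all 9. Its groups were separate steps as for Tdpoz2. It was 3.68-fold higher in KO/Y (adjusted p = 2.99e-05) and 2.06-fold higher in fl-/Y+Tx than in fl-/Y−Tx ES cells (adjusted p = 0.00207). It was 1.78-fold higher in KO/Y than in fl-/Y+Tx ES cells, which is under the 2-fold limit. Without array 1 of fl-/Y+Tx or array 3 of fl-/Y−Tx ES cells, the log2 fold change in fl-/Y+Tx over fl-/Y−Tx ES cells was 0.98 or 0.95 and missed that limit. The other probe of the gene, A_55_P1959788, had 40.7, 20.2 and 26.6 in KO/Y ES cells, well above background on 2 arrays, against 3.84 to 6.48 on the 6 others, and was not tested.

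The 2 Tdpoz9 probes were well above background on all KO/Y arrays and on no fl-/Y−Tx array. A_55_P1970287, which lists accessions of Tdpoz9 and Tdpoz1, had 59.6, 53.1 and 61.9 in KO/Y ES cells, 23.8, 18.9 and 23.5 in fl-/Y+Tx ES cells and 9.75, 9.48 and 20.1 in fl-/Y−Tx ES cells. Here the last array of fl-/Y−Tx ES cells overlapped with the fl-/Y+Tx arrays. A_55_P2062903 had 47.6, 53.1 and 63.4 in KO/Y, 8.64, 10.8 and 26.2 in fl-/Y+Tx and 5.68, 7.59 and 5.002 in fl-/Y−Tx ES cells. In KO/Y over fl-/Y−Tx ES cells the probes were at least 2.69-fold (adjusted p = 0.000224) and at least 2.51-fold higher (adjusted p = 0.000215). Over fl-/Y+Tx ES cells both were called (adjusted p = 0.00602 and 0.0055). A_55_P1970287 was detected on 2 and A_55_P2062903 on 1 of the 3 fl-/Y+Tx arrays, so that the measured folds of 2.65 and 4.04 rest in part on signals at background. Neither was called in fl-/Y+Tx over fl-/Y−Tx ES cells (both adjusted p over 0.05, at 0.052 and 0.0538). Without array 3 of fl-/Y−Tx ES cells, A_55_P1970287 was called there (log2 fold change 1.19, adjusted p = 0.00129), and without array 1 of fl-/Y+Tx ES cells A_55_P2062903 was (1.48, adjusted p = 0.0286).

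Tdpoz8 lies apart from the other members, at the start of the cluster. Its probe A_55_P2176908 had 5491, 6432 and 6143 in KO/Y ES cells, 4861, 4942 and 4704 in fl-/Y+Tx ES cells and 4391, 4408 and 4249 in fl-/Y−Tx ES cells. A_55_P2039761, which ends at the stop codon, had 165, 199.8 and 194 in KO/Y ES cells, 137, 128 and 120 in fl-/Y+Tx ES cells and 132, 124 and 109 in fl-/Y−Tx ES cells. Tdpoz8 was 1.38-fold and 1.53-fold higher by these probes in KO/Y than in fl-/Y−Tx ES cells (with adjusted p = 0.00097 and 0.00152). Their 95% intervals of the log2 fold changes were 0.30 to 0.63 and 0.38 to 0.86, and left out the 2-fold limit of 1. The intervals were -0.01 to 0.32 and -0.16 to 0.32 in fl-/Y+Tx over fl-/Y−Tx ES cells. With the RefSeq members added, 13 probes stood for the family and 9 were tested, of which 7 were called higher in KO/Y over fl-/Y−Tx, 5 in fl-/Y+Tx over fl-/Y−Tx and 5 in KO/Y over fl-/Y+Tx ES cells, with none called lower. The shares of all tested probes called higher were 4.58%, 1.71% and 2.23% in these comparisons, and the 2 Tdpoz9 probes, like 3 of the Tdpoz-named ones, were tested only through their signal in KO/Y ES cells.

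**Figure D2:**
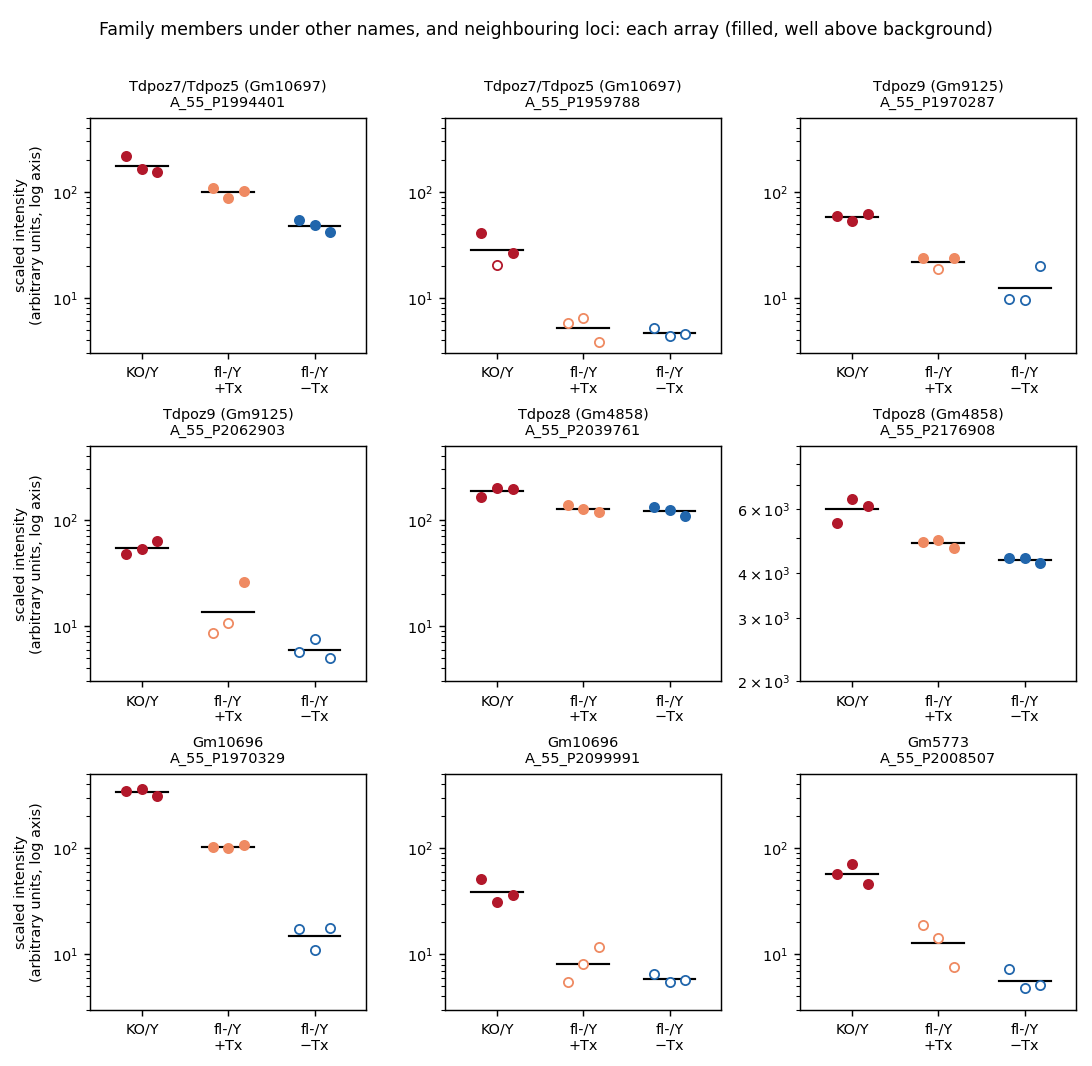
Scaled intensity (log axis, arbitrary units; the axis of the last Tdpoz8 panel covers a higher range) on each array for 6 probes of Tdpoz5, Tdpoz7, Tdpoz8 and Tdpoz9 and 3 probes of the neighbouring loci Gm10696 and Gm5773. Filled points are well above background and bars are geometric means. Tdpoz8 moved by less than 2-fold, while the 3 neighbouring probes were detected in KO/Y ES cells and not in fl-/Y−Tx ES cells.

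Upstream windows of 250 bases were read from RefSeq (GRCm38.p6) and were given for 6 Tdpoz genes, among them Tdpoz1, Tdpoz4 and Tdpoz5 of the 5 first named, with 2 start sites for Tdpoz8. The windows of Tdpoz1 and Tdpoz9 were identical at all 222 bases at which they aligned, and since 1 of the 2 detected Tdpoz9 probes lists accessions of both genes, their signals were not fully separated. The first window of Tdpoz8 was identical to that of Tdpoz9 at 214 of 242 aligned bases, and the 2 genes differed in response as given above. The windows of Tdpoz5 and Tdpoz7 were identical at 249 of 250 bases. Tdpoz9 (chr3:94054886-94055135, minus strand) and Tdpoz8 (chr3:93068573-93068822, plus strand) are printed 5′ to 3′ up to the base before the start site. They show how alike the upstream sequences are of a member called higher in KO/Y ES cells and of one higher by less than 2-fold. Which start site of Tdpoz8 gives its RNA was not tested. Capitals mark the motif TATATAA.
Tdpoz9: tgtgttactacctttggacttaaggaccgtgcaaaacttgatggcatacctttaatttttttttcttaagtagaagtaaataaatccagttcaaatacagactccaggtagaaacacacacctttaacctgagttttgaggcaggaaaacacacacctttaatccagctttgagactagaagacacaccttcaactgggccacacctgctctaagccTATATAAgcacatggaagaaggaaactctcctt
Tdpoz8: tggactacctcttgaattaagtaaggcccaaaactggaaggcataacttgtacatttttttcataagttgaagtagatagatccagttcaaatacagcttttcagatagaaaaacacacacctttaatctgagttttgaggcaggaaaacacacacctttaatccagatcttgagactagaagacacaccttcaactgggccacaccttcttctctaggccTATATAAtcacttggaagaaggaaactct
The motif TATATAA, searched on both strands, began 33 bases before the start site of Tdpoz9, 29 before the first start site of Tdpoz8 and 60 before that of Tdpoz1. It was not in the windows of Tdpoz4, Tdpoz5, Tdpoz7 or the second start of Tdpoz8. The Tdpoz4 window was identical at 236 of 243 aligned bases to that of this second start, which lies inside the Tdpoz8 gene. Whether the windows without the motif are promoters was not tested, so its lack there is no result about a promoter. Of all 32851 upstream windows of this length 3.04% held TATATAA. A further motif, CAAGGTCA, the type bound by Nr5a2, was in 1.33% of all windows and in no Tdpoz window, which says only that these letters are not there.

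The interval from the first Tdpoz8 probe to the last Gm10696 probe spanned 1101 kb of chromosome 3, and the Tdpoz-named probes 176 kb of it (chr3:93455493-93631039). In this interval Gm10696 and Gm5773 were higher in KO/Y than in fl-/Y−Tx ES cells, like most tested probes of the family. They were chosen after their values were seen, so the p-values given for them are no independent test. Gm10696 probe A_55_P1970329 had 343, 363 and 311 in KO/Y ES cells, 103, 99.99 and 108 in fl-/Y+Tx ES cells and 17.5, 10.9 and 17.7 in fl-/Y−Tx ES cells, the last not well above background. It was at least 15.7-fold higher in KO/Y (adjusted p = 4.05e-07) and at least 4.78-fold higher in fl-/Y+Tx ES cells (adjusted p = 2.16e-05). Its other probe, A_55_P2099991, was detected in KO/Y ES cells alone (51.3, 30.9 and 36.6) and was at least 1.79-fold higher there than in fl-/Y−Tx ES cells (adjusted p = 0.000104). In fl-/Y+Tx over fl-/Y−Tx ES cells A_55_P2099991 was not called (log2 fold change 0.46, adjusted p = 0.272 from limma). This probe and that of Gm5773 were tested only through their signal in KO/Y ES cells. Gm5773 had scaled intensities of 57.3, 70.5 and 45.6 in KO/Y, 18.8, 14.3 and 7.64 in fl-/Y+Tx and 7.20, 4.85 and 5.11 in fl-/Y−Tx ES cells, and was at least 2.63-fold higher in KO/Y over fl-/Y−Tx ES cells (adjusted p = 7.71e-05). It is the probe closest to that of Tdpoz2, and how far both read the same RNA was not tested.

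Most genes between Tdpoz8 and Tdpoz2 were not called, and neither were most tested probes of the array. Of all tested probes 4.58% were called higher in KO/Y over fl-/Y−Tx, 1.71% in fl-/Y+Tx over fl-/Y−Tx and 2.23% in KO/Y over fl-/Y+Tx ES cells. Of 17 probes of other genes or unnamed transcripts in the interval 11 were tested, and 2 were called higher in KO/Y over fl-/Y−Tx ES cells, 1 in fl-/Y+Tx over fl-/Y−Tx and 1 in KO/Y over fl-/Y+Tx ES cells. They were Tchh, which codes for the hair follicle protein trichohyalin (at least 3.18-fold higher in KO/Y and at least 2.17-fold higher in fl-/Y+Tx than in fl-/Y−Tx ES cells), and the unnamed transcript of A_55_P2035789, 1046 kb from the first Tdpoz8 probe and beyond Tdpoz9 (at least 1.49-fold higher in KO/Y than in fl-/Y−Tx ES cells and at least 1.45-fold higher than in fl-/Y+Tx ES cells). S100a10 and S100a11, proteins of the calcium-binding S100 family coded before Tdpoz2, had log2 fold changes of 0.47 and 0.38 in KO/Y over fl-/Y−Tx ES cells and were not called. Of 42 probes of lincRNA regions 8 were tested and 0 were called in any comparison. In either direction 7.84%, 2.56% and 3.54% of all tested probes were called in the same order of comparisons, so 0 of 8 lies near those shares.

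**Figure D3:**
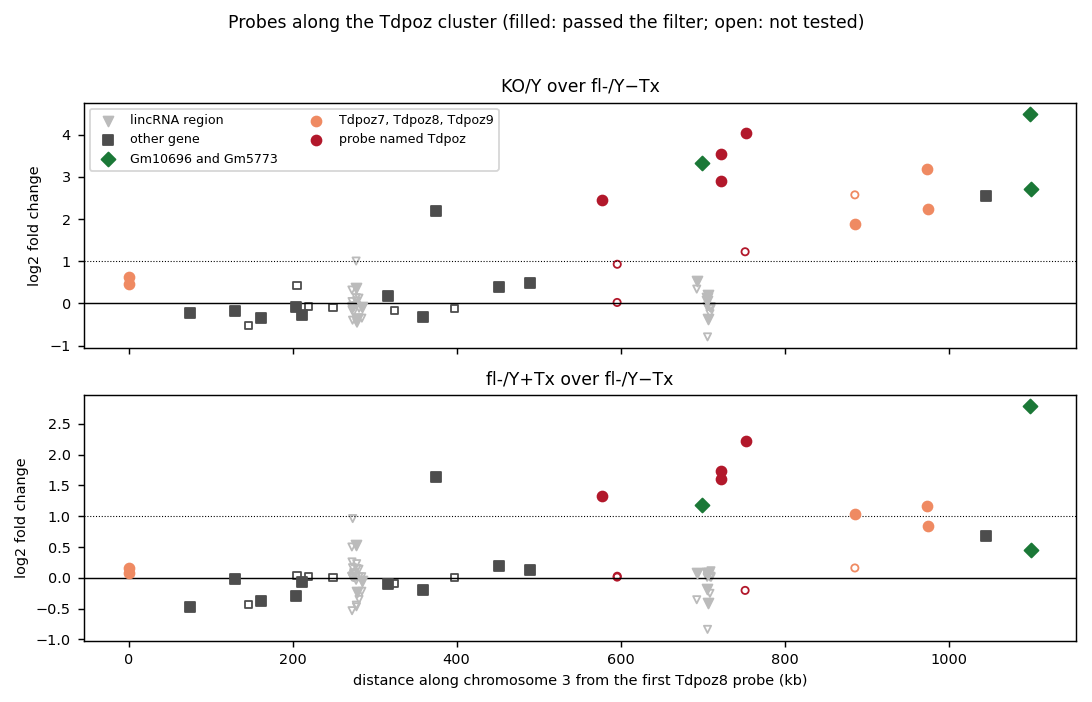
Log2 fold change of each probe against its distance along chromosome 3 from the first Tdpoz8 probe (kb), for KO/Y over fl-/Y−Tx and fl-/Y+Tx over fl-/Y−Tx ES cells. Filled symbols were tested, open ones were not, and the dotted line is the 2-fold limit. Probes past the limit lie mostly from Tdpoz2 onward, with Tchh before them. Of the 8 tested probes of lincRNA regions 0 were called, near the share of all tested probes.

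**Figure D4:**
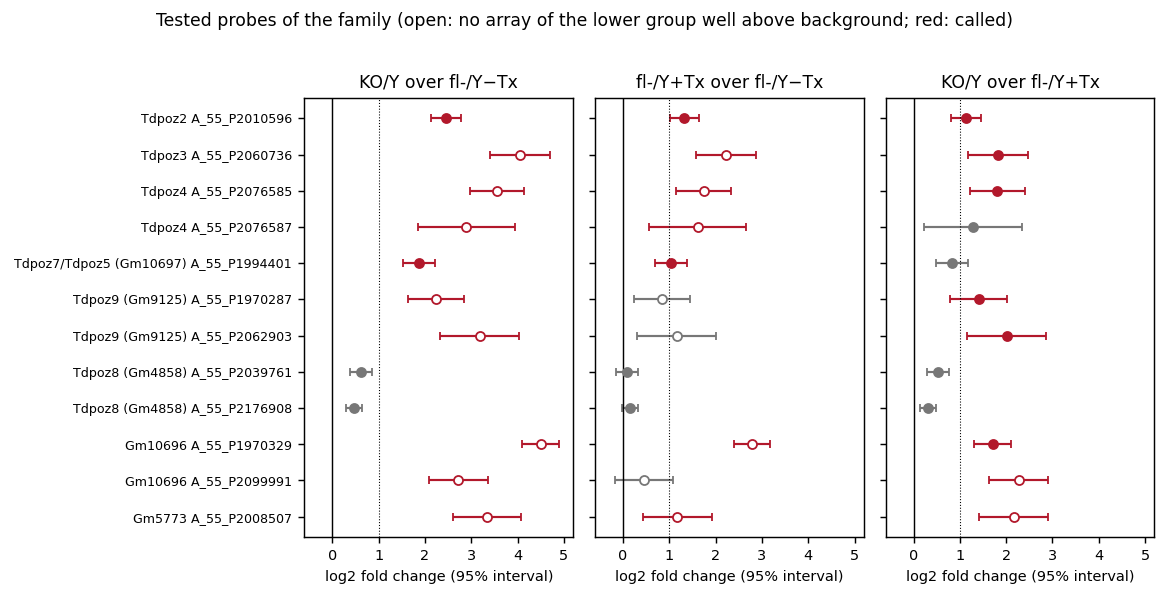
Log2 fold change with its 95% interval from limma for the 12 tested probes of the family and the neighbouring loci in the 3 comparisons. Red marks called probes and open points those with no array of the lower group well above background. The 2 Tdpoz8 probes stay below the dotted 2-fold line in every comparison.

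Spop, Spopl, Cul3 and other genes of the ligase that BTB proteins serve were not called in any comparison. Of 17 such genes, all tested, 0 were called in any of the 3 comparisons by limma. Of all tested probes 7.84%, 2.56% and 3.54% were called in either direction. In KO/Y over fl-/Y−Tx ES cells 4 were higher and 5 lower by the adjusted p alone, where 6144 and 7988 of all 31189 tested probes were. These counts lie near those shares. In KO/Y over fl-/Y−Tx ES cells the log2 fold change was 0.22 for Spop (adjusted p = 0.0205), -0.47 for its relative Spopl (adjusted p = 0.00308) and -0.30 for Cul3 (adjusted p = 0.0114). It was -0.30 for Rbx1, the RING subunit of the ligase (adjusted p = 0.022), and 0.06 for Nedd8, the ubiquitin-like protein that activates cullins (adjusted p = 0.488). The list's median was -0.06, with a range of -0.67 (Btbd9) to 0.57 (Klhl22).

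Other 2-cell genes were higher in the deleted cells as well. The list held 30 names, of which Dub1 and Usp17la fell on 1 probe and were counted once, and 24 probes were tested. Of these 19 were called higher in KO/Y over fl-/Y−Tx, 16 in fl-/Y+Tx over fl-/Y−Tx and 8 in KO/Y over fl-/Y+Tx ES cells, and 0 were called lower, with the shares of all probes as above. Their median fitted log2 fold change was 3.91 in KO/Y over fl-/Y−Tx, 2.88 in fl-/Y+Tx over fl-/Y−Tx and 0.92 in KO/Y over fl-/Y+Tx ES cells, where that of the 4 tested Tdpoz-named probes was 3.22, 1.68 and 1.55. With each probe that was below background in one group set at its bound, the medians were 3.79, 2.67 and 0.92 for the 2-cell list and 1.89, 0.33 and 1.55 for the Tdpoz-named probes in these comparisons. Gm428 had a log2 fold change of 6.19 in KO/Y and 4.12 in fl-/Y+Tx over fl-/Y−Tx ES cells. Of the 5 not called in KO/Y over fl-/Y−Tx ES cells, Zfp750 had 0.23. The brightest probe of Zfp352 had -0.01 while its other probe was called (fitted 4.07), and the brightest of Sp110 had -0.26 while its 2 others were called (2.69 and 4.84), so the probes of these genes disagree. Usp17la had 4.33 by its brightest probe and 0.15 by another, which was not called.

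Among 19 tested regulators of the 2-cell genes, Dppa2, an activator of that programme in ES cells, was called higher in KO/Y over fl-/Y−Tx ES cells (log2 fold change 1.28, adjusted p = 8.81e-06). Its other tested probe had 0.99 and was not called. In this comparison 4.58% of all tested probes were called higher and 3.25% lower, so that 1 of 19 lies near the share. By the brightest probe of each gene no regulator was called lower, and in the other 2 comparisons 0 were called. In either direction 7.84% of all tested probes were called in KO/Y over fl-/Y−Tx, 2.56% in fl-/Y+Tx over fl-/Y−Tx and 3.54% in KO/Y over fl-/Y+Tx ES cells. Of 8 further tested probes of these genes 2 were called in KO/Y over fl-/Y−Tx ES cells, 1 of Nr5a2 lower (-1.16, adjusted p = 9.06e-05) and 1 of Ncl higher (1.14, adjusted p = 1.03e-05), where the brightest Ncl probe had -0.47. By the adjusted p alone 13 of the 19 were lower in KO/Y over fl-/Y−Tx ES cells, where 7988 of all 31189 tested probes were. Among the 13 were Lin28a, an RNA-binding protein (-0.95), Nr5a2, a nuclear receptor of the 2-cell stage (-0.87), and Chaf1b, a subunit of the chromatin assembly factor that restrains 2-cell genes (-0.66).

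**Figure D5:**
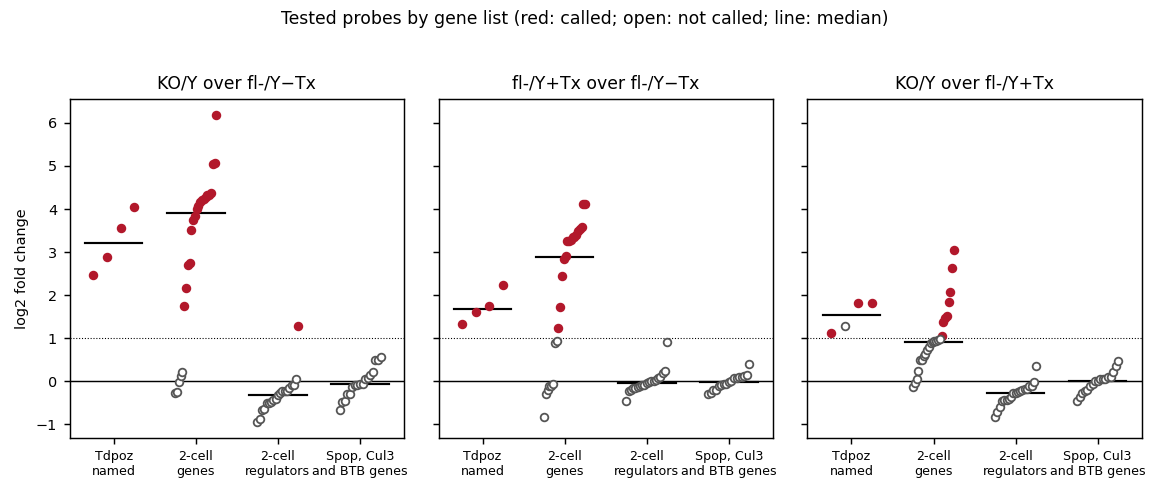
Log2 fold change of the tested probes of 4 lists (probes named Tdpoz, other 2-cell genes, their regulators, and Spop, Cul3 and BTB genes) in the 3 comparisons. Red points were called, open points were not, and lines are medians. The medians of the fitted values of the Tdpoz and 2-cell lists lie above the 2-fold line in both comparisons with fl-/Y−Tx ES cells, and the other 2 lists lie around 0.

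The probes whose profile over the 9 arrays was most like the mean of the 4 tested Tdpoz-named probes were named by Pearson's r, as a description of 9 arrays in 3 groups that share slides and scaling. Only tested probes with a gene symbol were ranked, and probes named Tdpoz or counted to the family by RefSeq were left out. No family probe of chromosome 3 could therefore appear. The 8 closest of the ranked probes lay on 6 chromosomes other than chromosome 3, and r was between 0.990 and 0.994. They were Usp17ld, a deubiquitinase of the 2-cell group (Dub2a on the array), Chpf2, Cdkn1a, the cell cycle inhibitor p21, Limch1, Actn2, Cpb2 and 2 probes of Sp110. Among the 4 Tdpoz-named probes themselves r was between 0.875 and 0.988, the highest for Tdpoz2 with Tdpoz3. The steps between the groups enter every r.

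Sums of fibroblast and primitive endoderm markers stood in the same order of groups as the Tdpoz signals, while single endoderm markers did not all follow it. All 8 ES markers were well above background on every array, with summed scaled intensities of 209945 to 252590 in KO/Y, 239334 to 256598 in fl-/Y+Tx and 259595 to 272454 in fl-/Y−Tx ES cells. All 12 fibroblast markers, among them Col1a1 and Dcn, were well above background everywhere, with sums of 155892 to 176896 in KO/Y, 130975 to 140535 in fl-/Y+Tx and 106687 to 112680 in fl-/Y−Tx ES cells. All 12 were higher by the adjusted p in KO/Y over fl-/Y−Tx ES cells, 1 of them past 2-fold. Of all 31189 tested probes 6144 were higher by the adjusted p there, and 4.58% were called higher. The sums of 8 primitive endoderm markers were 2013 to 2514 in KO/Y, 1039 to 1206 in fl-/Y+Tx and 744 to 837 in fl-/Y−Tx ES cells. All 8 were well above background on every KO/Y array, 3 on every fl-/Y+Tx array and 6 on every fl-/Y−Tx array. In KO/Y over fl-/Y−Tx ES cells 7 of 8 were called higher. In fl-/Y+Tx over fl-/Y−Tx ES cells 0 of the 8 endoderm markers were called higher and 1 was called lower. By the adjusted p alone 3 were higher and 2 lower, where 3395 and 3955 of all 31189 tested probes were. The part of these markers in the Tdpoz signals was not tested.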

How the data were processed

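Total RNA of mouse ES cells in 3 groups was hybridised to 9 arrays. Per the file headers, the authors' intensity values come from Agilent Feature Extraction 10.7.3.1, as a background-subtracted Cy3 signal per spot on a linear scale, with flags (a score of 0 or 1) for spots well above background, outlier spots and saturation. The series table deposited by the authors gives a single signal value per group and feature, used only as an alternative. The array's annotation is on mm9. The paper names NIA Array Analysis Software, without settings in the sources used here.

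In R 4.3.3 with limma 3.58.1 and data.table (version 1.17.8), outlier spots were left out, log2 intensities were set relative to each array's 75th percentile, and the spots of a probe were averaged (59305 spots, 55681 probes). On each array 28805 to 32503 probes were well above background, and 0 spots were saturated. Probes that all 3 arrays of some group detected above background were tested with lmFit and eBayes across the 9 arrays together, with Benjamini-Hochberg adjustment over 31189 probes. Calls needed a change of more than 2-fold with adjusted p below 0.05, limits the study also states. Printed scaled intensities are 2 to the power of this value plus the mean log2 percentile. Where no array of the lower group was well above background, a fold is written as at least its value against the dimmest detected signal of each of those arrays. An adjusted p beside such a fold tests the fitted log2 fold change, not this bound. The number of arrays, 3 per group, limits the precision. The method was tested on simulated data.

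Probes were aligned with Biopython 1.88 with free end gaps. The search for near probes with edlib 1.3.9.post1 compared whole probes end to end, so that shifted matches could be missed. The brightest probe stands for each gene of a list. The genes named are the members, those RefSeq counts to the family, members of fixed lists and the 8 probes outside the family most like the members. The members and lists were chosen with earlier results of these data known, and give no independent support to patterns seen before. Alternatives changed the background correction, the scaling, the filter on dim probes, the treatment of outlier spots, the variance model, the fold limit, the slide term and the arrays in the fit.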

Additional observations from a re-analysis of the deposited data

How the results depend on the processing

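No paired analysis was possible because the array files carry no replicate number that ties arrays of different groups to each other. None of the 4 tested Tdpoz-named probes changed direction under the 21 to 24 alternatives run for each, and the other 3 had values under 2 alternatives alone. The count of called Tdpoz-named probes depended on how dim signals were treated. With normexp background correction (offset 50) it was 2 in KO/Y over fl-/Y−Tx, 0 in fl-/Y+Tx over fl-/Y−Tx and 0 in KO/Y over fl-/Y+Tx ES cells, where Tdpoz2 had log2 fold changes of 1.16, 0.53 and 0.63 with limma's adjusted p under 0.05 in each. With a filter that asks for detection on all 9 arrays, Tdpoz2 alone was tested, and it was called (1 of 1) in each comparison. In fl-/Y+Tx over fl-/Y−Tx ES cells a floor on low signals left 1 call, the fit of only the 6 arrays compared left 1 of 1 tested, and a test against a fold of 2 left 0. That test also left 0 calls in KO/Y over fl-/Y+Tx ES cells. Leaving out 1 array at a time gave 4 calls in KO/Y over fl-/Y−Tx, 3 to 4 in fl-/Y+Tx over fl-/Y−Tx and 3 to 4 in KO/Y over fl-/Y+Tx ES cells.

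The Tdpoz4 probe A_55_P2076587 lost calls most often of the Tdpoz-named probes: in fl-/Y+Tx over fl-/Y−Tx ES cells it was not called under 14 of 22 alternatives, among them slide as a block (adjusted p = 0.19 from limma), which also ended its call in KO/Y over fl-/Y−Tx ES cells (adjusted p = 0.0534). Within a slide, 3 of 4 Tdpoz-named probes were called in fl-/Y+Tx over fl-/Y−Tx ES cells (1 against 3 arrays, the lone array assumed to vary like the others) and 4 of 4 in KO/Y over fl-/Y+Tx ES cells (3 against 2). The Tdpoz7 and Tdpoz5 probe A_55_P1994401 lost its call in fl-/Y+Tx over fl-/Y−Tx ES cells with normexp, with the test against a fold of 2, within slide 1, and without array 1 of fl-/Y+Tx or array 3 of fl-/Y−Tx ES cells.

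Over all probes, 1430 were called higher and 1015 lower in KO/Y over fl-/Y−Tx, 532 and 265 in fl-/Y+Tx over fl-/Y−Tx, and 697 and 406 in KO/Y over fl-/Y+Tx ES cells. In the same comparisons, counts were 512 and 350, 188 and 63, and 233 and 75 with normexp, and 735 and 643, 263 and 127, and 272 and 225 with only probes detected on all arrays. Without a fold limit they were 6144 and 7988, 3395 and 3955, and 3441 and 4266, and with the test against a fold of 2 they were 621 and 295, 207 and 37, and 169 and 56. With the brightest probe per gene, 632, 169 and 232 were lower.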
